A study of Homo sapiens with 6 samples.

Results

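The clustered protocadherins are 3 neighbouring groups of cell-surface adhesion genes on human chromosome 5, and their expression was compared between control and FAM60A-knockout HEK293 cells. Members were taken by name, as protein-coding genes whose symbol is PCDHA, PCDHAC, PCDHB, PCDHGA, PCDHGB or PCDHGC followed by a number. This gave 53 genes of the 62754 in the deposited count table, with 15 in the alpha, 16 in the beta and 22 in the gamma cluster. In RefSeq (GRCh38) the alpha members span chr5:140786140-141012347, the beta members chr5:141051374-141249365 and the gamma members chr5:141330514-141512975. RNA was measured in 3 control libraries and 3 FAM60A-knockout libraries. HEK293 cells grow attached and come from human embryonic kidney. The sample titles name HEK293, while the cell line label names its derivative HEK293T instead. All cells were grown in serum-containing medium. Knockout cells had received a CRISPR/Cas9 vector with guide RNAs against 3 regions of FAM60A and were selected as a puromycin-resistant pool, so they may hold a mixture of alleles. For the control cells the labels give no further treatment. FAM60A, whose current symbol is SINHCAF, encodes a subunit of the Sin3/HDAC corepressor complex.

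Clustered protocadherins are cadherin-like proteins that bind the same isoform on an opposing cell. In neurons, each cell transcribes only a few of the alternative isoforms, and the resulting surface code lets a neuron tell its own branches from those of others. In the alpha and gamma clusters each isoform has its own promoter and large first exon, which is spliced to constant exons at the end of the cluster, whereas each beta gene is a single exon. The C-type isoforms (PCDHAC1, PCDHAC2, PCDHGC3, PCDHGC4 and PCDHGC5) sit at the ends of the alpha and gamma clusters and are expressed more uniformly. CTCF and cohesin loop the promoters to distant enhancers, and DNA methylation and SMCHD1 keep unused promoters silent.

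Most promoters of the clusters are known to carry a short conserved element with the core CGCTG. Stretches around these letters are shown here for the most abundant isoforms that had a match, for the C-type isoform PCDHGC4, and for PCDHB5 and PCDHGA2, whose values are described below. RefSeq promoter windows (GRCh38.p14, 250 bases before to 50 after the gene start, all on the plus strand) were at hand for 47 of the 53 members. The stretches below run 5′ to 3′ on the gene's strand, with the letters CGCTG in capitals. These letters alone do not show that a stretch holds the conserved element.
PCDHA10 (chr5:140855842-140855876): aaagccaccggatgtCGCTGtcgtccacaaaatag
PCDHAC1 (chr5:140926270-140926304): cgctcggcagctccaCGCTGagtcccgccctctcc
PCDHAC2 (chr5:140966366-140966400): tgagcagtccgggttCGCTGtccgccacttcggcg
PCDHB2 (chr5:141094545-141094579): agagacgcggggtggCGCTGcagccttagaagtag
PCDHB5 (chr5:141135180-141135214): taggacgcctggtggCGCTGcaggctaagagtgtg
PCDHB15 (chr5:141245315-141245349): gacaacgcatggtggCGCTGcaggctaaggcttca
PCDHGA2 (chr5:141338704-141338738): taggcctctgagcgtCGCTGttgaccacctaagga
PCDHGB5 (chr5:141397864-141397898): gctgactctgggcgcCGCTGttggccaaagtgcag
PCDHGA11 (chr5:141420973-141421007): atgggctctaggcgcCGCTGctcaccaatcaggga
PCDHGC3 (chr5:141475881-141475915): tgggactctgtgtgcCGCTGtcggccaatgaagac
PCDHGC4 (chr5:141484953-141484987): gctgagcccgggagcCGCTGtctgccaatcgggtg
Searched on both strands, CGCTG was found in 41 of the 47 members with a window and in 48.0% of all 35116 promoter windows of the same length. Its flanks differed by cluster. TGGCGCTGC was held by 11 of 14 beta members, by no alpha or gamma member and by 0.641% of all windows. ATGTCGCTG was held by 6 of 13 alpha members, including PCDHA10, and by 0.0854% of all windows. CGCTGNNNNCCA was held by 13 of 20 gamma and 6 of 13 alpha members and by 1.73% of all windows. Of the stretches shown, that of PCDHAC1 holds none of these longer forms, only the core, while the others hold one or more. Each longer form contains the core, and the alpha form and the CCA form can overlap at one site. On the gene's strand the core lay a median of 55 bases before the annotated start in 40 members. PCDHB14 had a window without the core, and no window was printed for PCDHGC5. These forms were chosen after the windows had been read.

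One control library stood apart from the other 2. The controls (replicates 1, 2 and 3) held 92736586, 93172005 and 93346824 counts in total, and the knockout libraries held 88361827, 91279417 and 90771711. FAM60A itself had 11028, 10165 and 12792 counts in control and 5684, 5793 and 5449 in knockout libraries, so control replicate 3 was at the control level for the targeted gene. Its fitted change was -0.85 ± 0.11 on the log2 scale (SE, edgeR adjusted p = 0.00863), short of the fold threshold used below, and the adjusted p exceeded 0.05 without any one knockout library (edgeR adjusted p up to 0.0736). Clustered protocadherins, however, had 8085 and 6901 counts in control replicates 1 and 2, 2231 in control replicate 3, and 3510, 3402 and 4192 in the knockout libraries. Values are therefore given for control replicate 3 apart from the others, and the counts of calls among the members and the gene lists with and without it. The labels do not say that libraries came from separate cultures, so the p-values measure only the spread between these libraries, which may be technical.

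Mitochondrial genes took 4.63%, 3.97% and 5.57% of the counts in control and 9.15%, 8.70% and 10.1% in knockout libraries. Of 5 markers of HEK293 cells (VIM, CDH2, PAX2, NEFM and LIN28B), all were detected in each library. Their summed level was 987 and 984 CPM (counts relative to the library total, adjusted by edgeR's TMM factors) in control replicates 1 and 2, 465 in control replicate 3, and 445, 489 and 436 in the knockout libraries. The most abundant of them throughout was VIM, an intermediate filament gene, with 67461, 67908 and 28924 counts in control and 22202, 27081 and 22257 in knockout libraries. For VIM, CDH2 and LIN28B, control replicate 3 and all knockout libraries lay below control replicates 1 and 2. In CPM, VIM in control replicate 3 (299) lay within the range of the knockout libraries (252 to 309) instead of below it. PAX2, a kidney transcription factor gene, went the other way in control replicate 3, with 1.48, 1.67 and 5.97 CPM in control and 1.95, 1.89 and 2.06 CPM in knockout libraries. NEFM, a neurofilament gene, was not lower there, with 168, 192 and 188 counts in control and 93, 115 and 81 in knockout libraries. Of these 5 markers none was called over all 6 libraries at the threshold used below, against 7.06% of all genes. Without control replicate 3, VIM was called lower (-1.38 ± 0.09, SE, edgeR adjusted p = 1.36e-11), against 9.75% of all genes. The part of these markers in the results was not tested.

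Of 8 markers of other cell types, 7 were matched in the table. Their summed level was 27.8, 29.2 and 30.2 CPM in control and 35.5, 37.2 and 37.1 CPM in knockout libraries. COL1A1, a fibroblast collagen gene, was the most abundant in control and SYT1, a synaptic vesicle gene, in knockout libraries. SYT1 had 19, 16 and 25 counts in control and 1490, 1473 and 1520 in knockout libraries (log2 fold change 6.37 ± 0.23, SE, edgeR adjusted p = 0.000427). The other neuronal marker, RBFOX3, had 164, 185 and 860 counts in control and 260, 290 and 311 in knockout libraries. PTPRC, a leukocyte marker, and ALB, a hepatocyte marker, stayed at 9 counts or fewer in every library, and PTPRC was at 0 in knockout replicate 3. NPHS1, a podocyte marker, had 8, 5 and 41 counts in control and 25, 28 and 40 in knockout libraries. Of this list 5 genes were tested, and SYT1 was called higher over all 6 libraries, against 3.34% of all genes. Without control replicate 3, SYT1 and NPHS1 were called higher (2.35 ± 0.41 for NPHS1, SE, edgeR adjusted p = 3.08e-05), against 13.1% of all genes. The part of the markers of other cell types in the protocadherin results was not tested either.

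All 3 clusters were highest in control replicates 1 and 2. The summed level of the alpha cluster was 9.77, 8.31 and 1.80 CPM in control and 5.61, 4.94 and 5.44 CPM in knockout libraries. That of the beta cluster was 7.23, 7.53 and 1.31 CPM in control and 1.80, 1.57 and 1.75 CPM in knockout libraries. For the gamma cluster, which held most of the counts, it was 66.1, 55.9 and 20.0 CPM in control and 34.2, 32.2 and 40.3 CPM in knockout libraries. In each cluster control replicate 3 was the lowest library. The 3 knockout libraries lay between it and the other controls and close to each other. As group values this was 6.63 ± 4.24 CPM in control and 5.33 ± 0.348 CPM in knockout cells for alpha (SD, n = 3 each), 5.36 ± 3.51 and 1.71 ± 0.122 CPM for beta, and 47.3 ± 24.2 and 35.6 ± 4.17 CPM for gamma. The control and knockout ranges overlapped in every cluster. In bulk RNA, fewer cells that express a gene and less RNA per cell cannot be told apart.

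**Figure D1:**
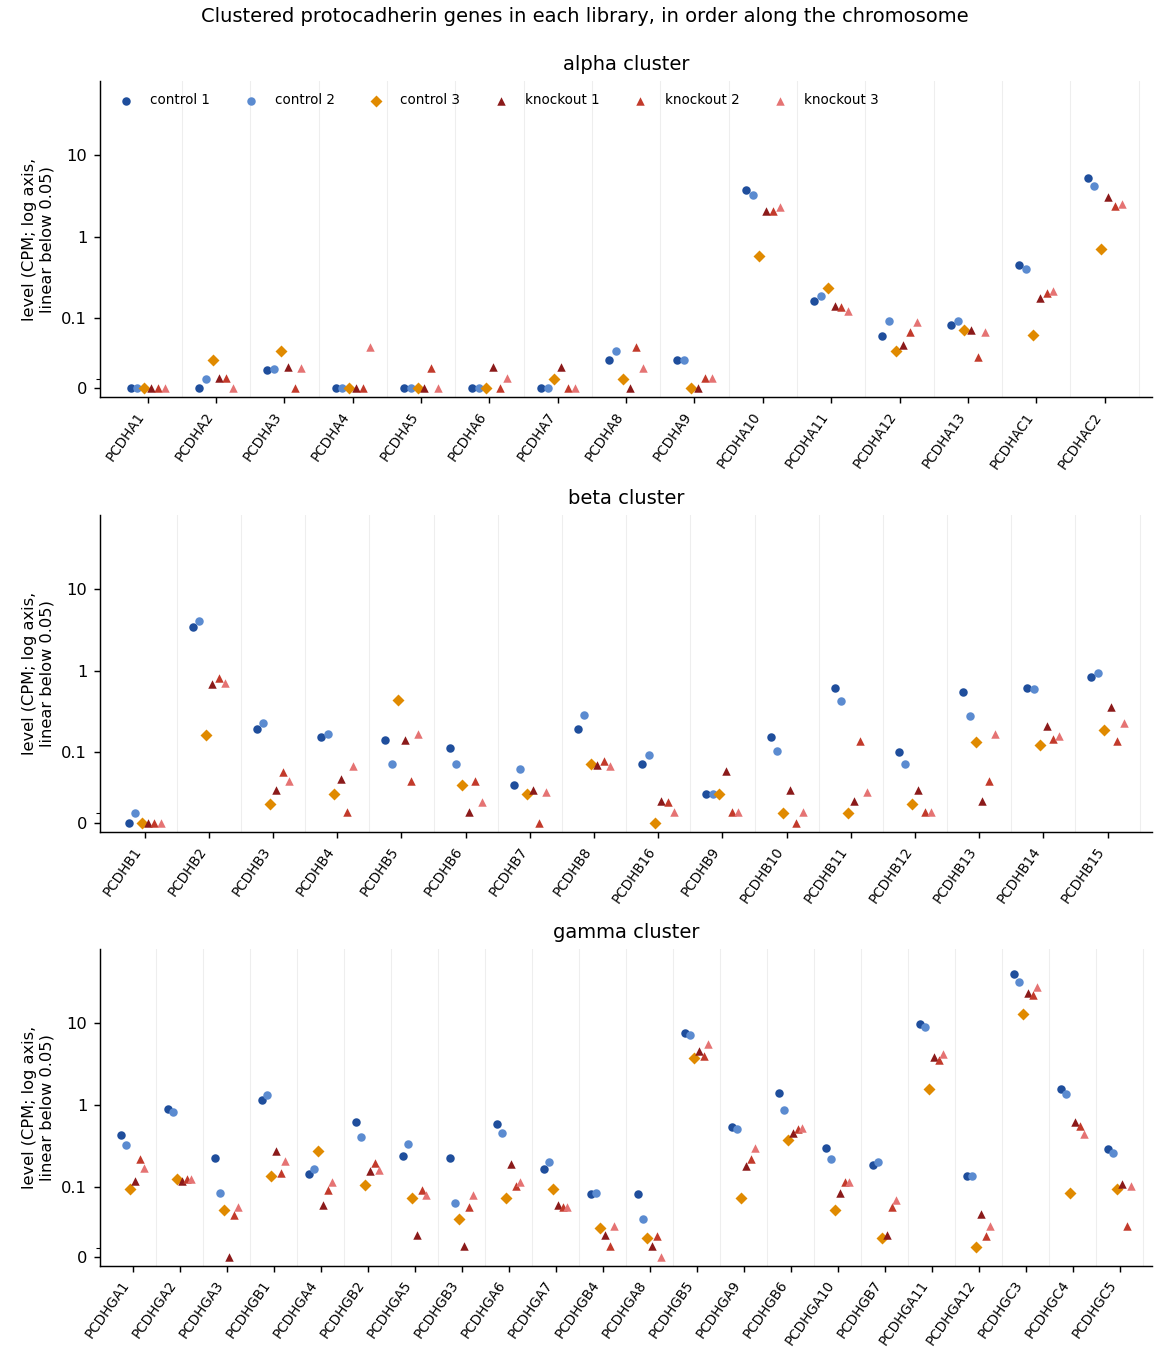
Level of each of the 53 members (CPM, log axis, linear below 0.05) in each library, with members in their order along the chromosome and 1 panel per cluster. Circles are control replicates 1 and 2, diamonds control replicate 3 and triangles the 3 knockout libraries; for most members with appreciable counts the circles lie on top and the diamond lowest, and PCDHB5, PCDHA11 and PCDHGA4 show the diamond above the circles.

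In the knockouts the summed level that remained was lowest in the beta cluster. Set against the mean of control replicates 1 and 2, the knockout libraries held 62.1%, 54.7% and 60.2% of the alpha level and 56.1%, 52.8% and 65.9% of the gamma level. Of the beta level they held 24.4%, 21.3% and 23.8%, so that the beta cluster lay below the others in each knockout library. Control replicate 3 held 19.9% of the alpha, 17.8% of the beta and 32.7% of the gamma level. The alpha and gamma fractions overlapped, and the gamma sum was mostly PCDHGC3. Without PCDHGC3 the gamma fraction was 43.5%, 40.2% and 49.5% in the knockouts, nearer to that of beta, and without PCDHB2 the beta fraction was 30.7%, 20.7% and 28.7%. Without PCDHAC2 the alpha fraction was 59.2%, 59.5% and 68.3%. In control replicate 3 the fractions without these leading members were 25.2% for alpha, 31.6% for beta and 28.1% for gamma, so beta was not the lowest there. The fractions were described and not tested.

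The plot of levels along the chromosome shows that few members carried each cluster. At least 10 counts were reached by 4, 4 and 3 of the 15 alpha members in the controls and by 4 in each knockout library. In the beta cluster the number was 12, 9 and 5 of 16 in control and 4, 4 and 5 in knockout libraries. In the gamma cluster it was 20, 18 and 8 of 22 in control and 11, 11 and 13 in knockout libraries. The drop in number thus fell on low beta and gamma members, while the alpha number hardly moved. Of the 53 members, 7 had at most 3 counts in every library. PCDHA1 had no count in any library, which allows up to 0.0340 CPM without TMM scaling in the library with the fewest counts.

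Isoform choice was described by the share of a cluster's level held by each member, with CPM divided by the exonic length that no other gene shares. Such lengths were 2370 to 10557 bases in alpha, 2529 to 7973 in beta and 2459 to 5752 in gamma. All alpha and gamma members, and 5 beta members, share exonic bases with another gene. How reads in the shared exons were assigned is not stated, so the split among isoforms is uncertain. Exons of 9 alpha, 9 beta and 1 gamma member also overlap genes on the other strand, and a strand setting of the counting is not stated.

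In the alpha cluster a C-type isoform led everywhere. PCDHAC2 (ENSG00000243232), a C-type isoform with its own promoter next to the constant exons, had 510, 405 and 69 counts in control and 258, 209 and 221 in knockout libraries. It held 72.9%, 69.3% and 50.1% of the alpha level in control and 72.2%, 67.1% and 65.5% in knockout libraries. PCDHA10 (ENSG00000250120), an alternative isoform, had 358, 309 and 56 counts in control and 171, 178 and 206 in knockout libraries. By counts without length the lead of PCDHAC2 was narrower. It took 53.7%, 50.7% and 39.7% of the alpha counts in control and 54.5%, 48.2% and 45.9% in knockout libraries. PCDHA10 took 37.7%, 38.7% and 32.2% in control and 36.2%, 41.0% and 42.8% in knockout libraries. Both genes were lowest in control replicate 3, and in both the knockout libraries lay inside the control range. In PCDHA10 3331 of 15664 exonic bases overlap a gene on the other strand.

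The remaining alpha members were low. PCDHAC1 (ENSG00000248383), the other alpha C-type isoform, had 44, 39 and 6 counts in control and 15, 18 and 19 in knockout libraries. PCDHA11 (ENSG00000249158), singled out after its values were seen, had 16, 18 and 23 counts in control and 12, 12 and 11 in knockout libraries. It was not lower in control replicate 3, and it took second place there with 16.4% of the alpha level, against 2.24% and 3.02% in control replicates 1 and 2. By counts without length PCDHA10 kept second place in control replicate 3, with 32.2% of the alpha counts against 13.2% for PCDHA11. The effective number of alpha isoforms (inverse Simpson index, which is 1 when a single member holds everything) was 1.78, 1.95 and 3.31 in control and 1.82, 2.05 and 2.12 in knockout libraries. Counted as the percentage of alpha counts that would have to change isoform to turn one library into another, control replicates 1 and 2 differed by 3.0%, the knockouts from each other by 4.11% to 9.73%, and the knockouts from control replicates 1 and 2 by 3.62% to 8.53%. Control replicate 3 differed from the rest by 18.7% to 21.0%.

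The beta cluster was the most evenly used. PCDHB2 (ENSG00000112852), in which 1796 of 4097 exonic bases overlap a gene on the other strand, had 332, 392 and 16 counts in control and 58, 72 and 63 in knockout libraries. PCDHB15 (ENSG00000113248) had 81, 91 and 18 counts in control and 30, 12 and 20 in knockout libraries. PCDHB14 (ENSG00000120327) had 60, 57 and 12 counts in control and 18, 13 and 14 in knockout libraries. In all 3 genes every knockout library was below control replicates 1 and 2 and, apart from PCDHB15 in knockout replicate 2, above control replicate 3. All beta genes encode single-exon adhesion proteins that lack the constant cytoplasmic tail of the alpha and gamma isoforms.

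PCDHB2 held 45.5% and 51.6% of the beta level in control replicates 1 and 2, 35.4%, 49.3% and 38.5% in the knockouts, and 11.3% in control replicate 3. In control replicate 3 the lead passed to PCDHB5 (ENSG00000113209; 501 of 3410 exonic bases overlap a gene on the other strand), singled out after its values were seen, with 35.6% of the beta level. PCDHB5 had 14, 7 and 42 counts in control and 12, 4 and 15 in knockout libraries, and was the only beta member with 10 counts or more on average that was not lower in control replicate 3. The effective number of beta isoforms was 4.09, 3.33 and 5.49 in control and 5.13, 3.61 and 5.03 in knockout libraries, so the group ranges overlapped. Beta makeup differed by 10.2% of counts between control replicates 1 and 2, by 15.7% to 28.1% among the knockouts and by 10.7% to 24.3% between the knockouts and those controls. Control replicate 3 and the knockouts had 127 to 155 beta counts each, so these distances rest on few counts. From control replicate 3 the other libraries differed by 32.4% to 51.0%.

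**Figure D2:**
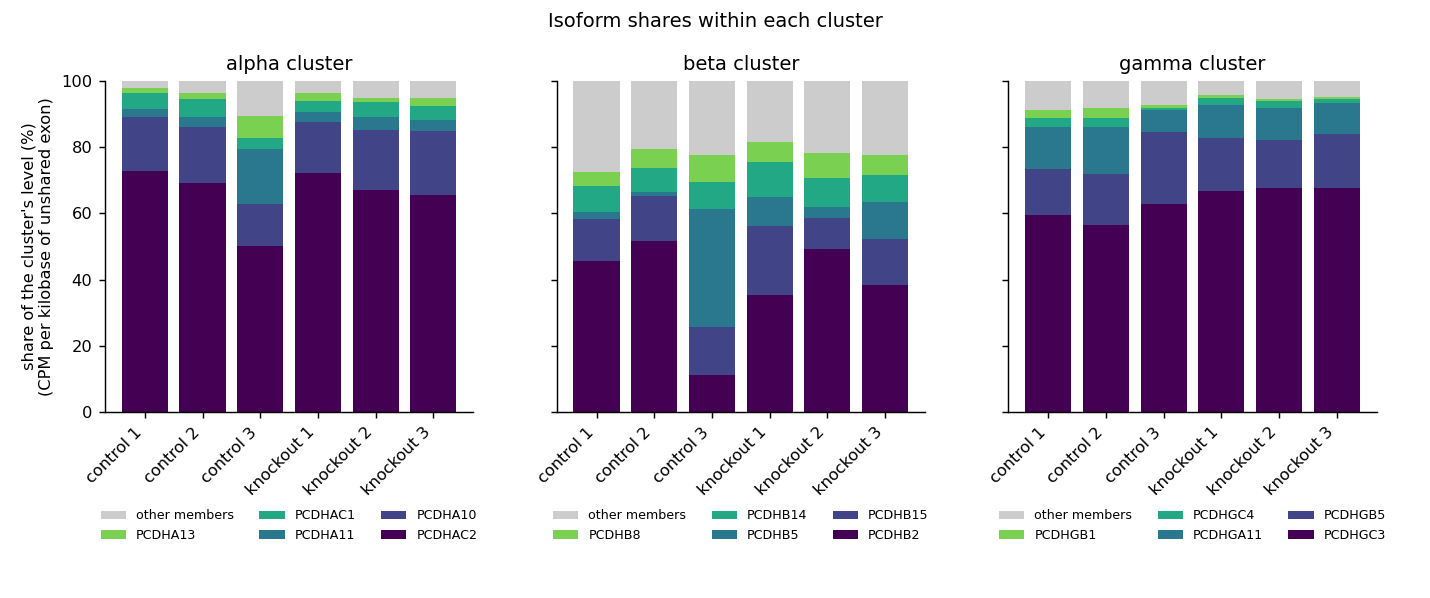
Share of each cluster's level (%, CPM per kilobase of unshared exon) held by the 5 members with the highest mean share and by all others, in each library. PCDHAC2 and PCDHGC3 form the lowest block of the alpha and gamma bars in every library, and in control replicate 3 PCDHB5 (35.6%) replaces PCDHB2 (11.3%) as the largest beta block.

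The gamma cluster was led by PCDHGC3 (ENSG00000240184), a C-type isoform with expression outside the nervous system. It had 3850, 3073 and 1245 counts in control and 1959, 1938 and 2451 in knockout libraries, the most of any member. PCDHGB5 (ENSG00000276547), a B-type isoform, had 746, 689 and 359 counts in control and 389, 348 and 486 in knockout libraries. PCDHGA11 (ENSG00000253873), an A-type isoform, had 938, 863 and 151 counts in control and 322, 309 and 375 in knockout libraries. In CPM, control replicate 3 was lowest and the knockouts lay between it and the other controls in all 3 genes. In the knockouts, mean levels were 68.1% of the mean of control replicates 1 and 2 for PCDHGC3, 63.3% for PCDHGB5 and 41.5% for PCDHGA11.

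The remaining gamma members were less abundant. PCDHGC4 (ENSG00000242419), a C-type isoform known for keeping interneurons alive, had 151, 130 and 8 counts in control and 52, 49 and 39 in knockout libraries. PCDHGC5 (ENSG00000240764) had 28, 25 and 9 counts in control and 9, 3 and 9 in knockout libraries. PCDHGA2 (ENSG00000081853), an A-type isoform named after its values were seen, had 86, 79 and 12 counts in control and 10, 11 and 11 in knockout libraries. All 3 knockout libraries held about as little PCDHGA2 as control replicate 3 did. The order was different in PCDHGA4 (ENSG00000262576), also named after its values were seen, which had 14, 16 and 26 counts in control and 5, 8 and 10 in knockout libraries. With PCDHA11 it was one of 2 members, of 26 that averaged 10 or more counts, in which every knockout library lay below every control library. Among the 21031 genes with that mean, 20.3% showed this order.

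Within gamma, PCDHGC3 took a larger share of the counts in the knockouts. On its own it took 59.9%, 57.1% and 64.5% in control and 67.9%, 68.5% and 68.9% in knockout libraries. The other C-type members did not share this. PCDHGC4 took 2.35%, 2.42% and 0.415% in control and 1.80%, 1.73% and 1.1% in knockout libraries, and PCDHGC5 0.435%, 0.465% and 0.466% in control and 0.312%, 0.106% and 0.253% in knockout libraries. PCDHGC3, PCDHGC4 and PCDHGC5 together took 62.6% (95% Wilson interval 61.5% to 63.8%), 60.0% (58.7% to 61.3%) and 65.4% (63.2% to 67.5%) of the gamma counts in the controls. In the knockouts they took 70.0% (68.3% to 71.7%), 70.3% (68.6% to 72.0%) and 70.3% (68.8% to 71.8%), above all 3 controls. The A-type share was 20.2%, 21.9% and 12.5% in control and 13.8%, 14.3% and 13.4% in knockout libraries. The B-type share was 17.2%, 18.1% and 22.1% in control and 16.2%, 15.3% and 16.3% in knockout libraries. The knockouts were thus alike in gamma makeup, differing among themselves by 2.15% to 2.38% of counts, and differed by 9.41% to 12.7% from control replicates 1 and 2, which were 4.19% apart. From control replicate 3 they differed by 8.31% to 9.17%. The effective number of gamma isoforms was 2.56, 2.74 and 2.24 in control and 2.07, 2.04 and 2.02 in knockout libraries, so the ranges did not overlap. In the alpha cluster the C-type share of counts was 58.3%, 55.6% and 43.1% in control and 57.7%, 52.3% and 49.9% in knockout libraries, with overlapping ranges. These intervals cover counting error only, and the shares were described without a test.

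**Figure D3:**
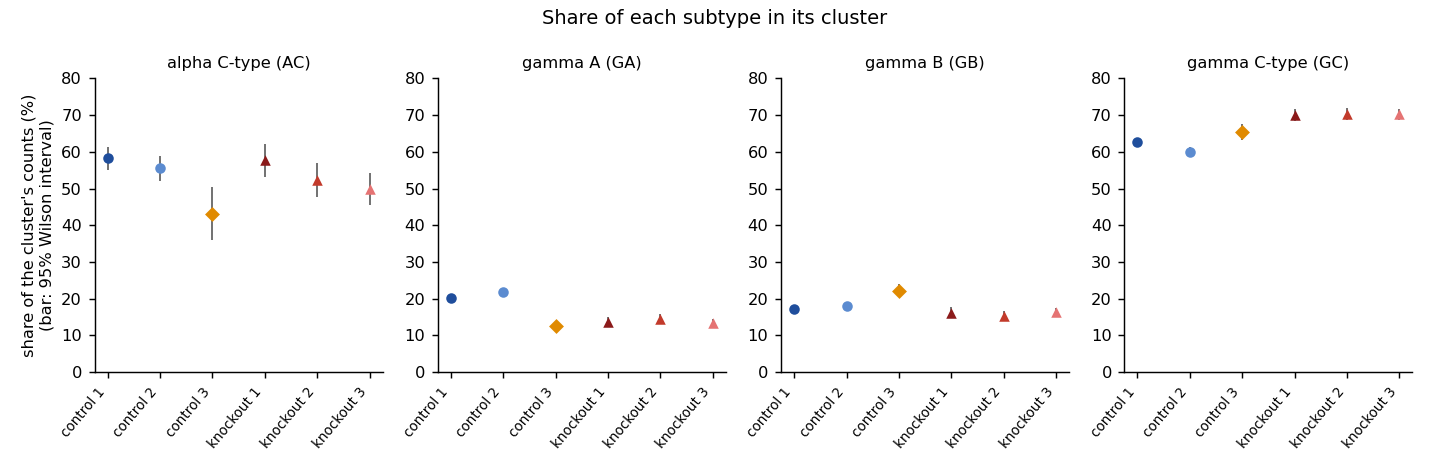
Share of the cluster's counts (%) taken by the alpha C-type members and by the gamma A, B and C-type members in each library, with 95% Wilson intervals as bars. The 3 knockout libraries (triangles) hold 70.0% to 70.3% gamma C-type counts, above the 60.0% to 65.4% of the controls, and nearly all of these are PCDHGC3 counts.

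Knockout and control cells were compared gene by gene with edgeR's quasi-likelihood test over all 6 libraries, with adjustment over 20992 genes. The filter on low counts kept 23 of the 53 members (4 alpha, 6 beta and 13 gamma). At an adjusted p of at most 0.05 and a log2 fold change of 1 or more in size, no member was called, against 7.06% of all genes tested. Without the fold threshold none passed either, against 16.6% of all genes. An unadjusted edgeR p under 0.05 was reached by 4 members, all lower in knockout cells, which is 17.4% of those tested and near the 18.4% of all genes that were lower at this level. All 23 tested members had a fitted value below 0, as had 50.6% of all genes. Their median log2 fold change was -0.86 (alpha -0.45, beta -1.62, gamma -0.86), and that of all genes tested was -0.0081. DESeq2 called 2 members, PCDHGA2 and PCDHGB1, against 9.23% of all genes, and limma-voom called 1, PCDHGA4, against 7.4%. Neither count stands out from these shares.

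PCDHGA2 had the lowest p of the members, with a log2 fold change of -2.30 ± 0.71 (SE, edgeR adjusted p = 0.0732, and 6.34e-09 to 0.223 over the alternatives). For PCDHB2 it was -1.78 ± 0.95 (SE, edgeR adjusted p = 0.233), from 2.55 ± 2.09 CPM in control to 0.741 ± 0.0701 CPM in knockout cells (SD, n = 3). PCDHGC3, at 28.1 ± 13.8 and 24.4 ± 2.99 CPM, had a log2 fold change of -0.21 ± 0.39 (SE, edgeR adjusted p = 0.736). In PCDHB2 and PCDHGC3 control replicate 3 lay below the knockout libraries, and the other 2 controls lay above them. For PCDHA10, PCDHAC2 and PCDHGC3 the fitted value turned above 0 when control replicate 1 was left out (0.13, 0.064 and 0.084 on the log2 scale).

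Control replicate 3 was set apart with its low counts of these members known. Leaving it out raises the control level of most of them, so the calls made without it are no independent support for a fall in knockout cells. Without control replicate 3, 16 of the same 23 members were called lower in knockout cells (1 of 4 alpha, 5 of 6 beta and 10 of 13 gamma), against 8.48% of the genes tested both ways. Of the 17 members with at least 10 counts in every knockout library, 12 were called lower, against 6.79% of all genes with such counts. A further 8 members passed the filter only in this fit. None of them reached 10 counts in a knockout library, so they entered through control replicates 1 and 2, where they were high, and their being called lower, as all 8 were, is no further support. With them the count was 24 of 31, against 9.75% of the 21686 genes tested then. No member was called higher, against 13.1% of all genes. The alpha member was PCDHAC1, with a log2 fold change of -1.13 ± 0.28 (SE, edgeR adjusted p = 0.00154). PCDHAC2 had -0.87 ± 0.13 (SE, edgeR adjusted p = 6.02e-06) and PCDHGC3 -0.58 ± 0.10 (SE, edgeR adjusted p = 2.76e-05), both short of the fold threshold. PCDHB2 had -2.37 ± 0.15 (SE, edgeR adjusted p = 1.16e-11), PCDHGA2 -2.81 ± 0.26 (SE, edgeR adjusted p = 6.34e-09) and PCDHGA11 -1.30 ± 0.10 (SE, edgeR adjusted p = 5.88e-10). PCDHB5 went the other way, at 0.10 ± 0.51 (SE, edgeR adjusted p = 0.871). The median over the 23 members was -1.30, and over all genes -0.0024.

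**Figure D4:**
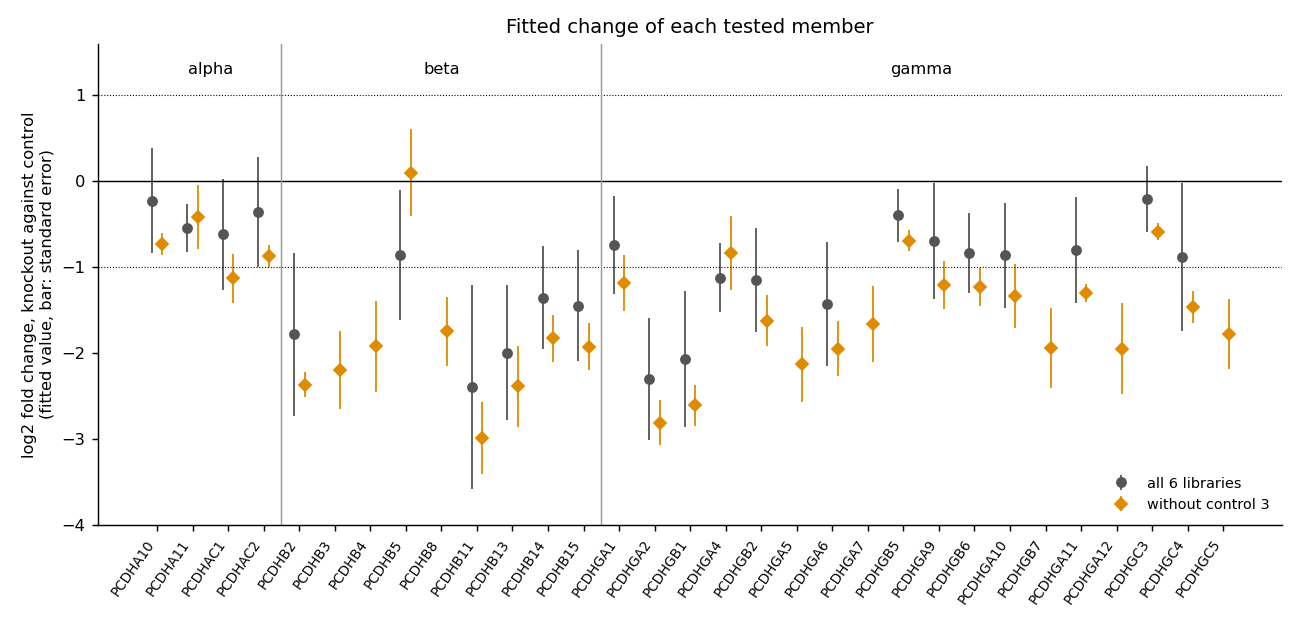
Fitted log2 fold change of knockout against control with its standard error for each member tested, over all 6 libraries (circles) and without control replicate 3 (diamonds), with members in chromosomal order. Without control replicate 3 most values are lower and their bars shorter, as for PCDHB2 (-1.78 and -2.37), and members with a diamond alone passed the filter only then.

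The place of control replicate 3 was described over the 26 members and 21031 genes that averaged 10 or more counts. The low sum of these same members had led to that library being set apart, so its place among them is a description and no separate support. Control replicate 3 lay below both other controls in 23 members, against 44.6% of all genes. Every knockout library lay below control replicates 1 and 2 in 25 members, against 36.4% of all genes. Both held in 23 members, against 27.7% of all genes. PCDHB8, PCDHGA5 and PCDHGC5, included in each of these counts of members, had 10 or more counts only in control replicates 1 and 2. They entered the set through the libraries where they were high, so their order is no further support. Control replicate 3 was at least 4-fold below both other controls in 13 members, against 1.99% of all genes, and at least 4-fold above both in none, against 4.45%. It lay below every knockout library in 17 members, against 40.5% of all genes. The 13 members were PCDHA10, PCDHAC1, PCDHAC2, PCDHB2, PCDHB11, PCDHB14, PCDHB15, PCDHGA2, PCDHGB1, PCDHGA6, PCDHGA9, PCDHGA11 and PCDHGC4, from all 3 clusters.

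No regulator of the clusters passed the adjusted p and the fold threshold together, against 7.06% of all genes. Of 26 genes listed for this role (CTCF, cohesin and its loaders, SMCHD1, DNA methylation and silencing factors), all were tested. Without the threshold 1 was higher and 3 were lower, a share close to the 16.6% of all genes, and the median log2 fold change was -0.043. Without control replicate 3 again none passed the fold threshold, against 13.1% of all genes called higher and 9.75% called lower. Without that threshold 2 were higher and 12 lower, against 65.6% of all genes past the adjusted p in that fit. CTCF, which binds the promoters and enhancers, had 9692, 9312 and 7493 counts in control and 4826, 5506 and 5121 in knockout libraries. All knockout libraries lay below all controls, with a log2 fold change of -0.62 ± 0.12 (SE, edgeR adjusted p = 0.0221). RAD21, a cohesin subunit, had 22090, 20237 and 22858 counts in control and 28998, 30673 and 28704 in knockout libraries, a log2 fold change of 0.60 ± 0.09 (SE, edgeR adjusted p = 0.0119). The other genes past the adjusted p were DNMT1, the maintenance DNA methyltransferase (-0.37, edgeR adjusted p = 0.0439), and EHMT2, a histone H3 lysine methyltransferase (-0.77, edgeR adjusted p = 0.0286). None of these 4 genes passed the adjusted p without any one knockout library or without control replicate 2, nor did any but RAD21 without control replicate 1, with edgeR adjusted p reaching 0.12 for CTCF and 0.0835 for RAD21. SMCHD1, a repressor of the clusters, had 20484, 16857 and 10249 counts in control and 11998, 10811 and 12438 in knockout libraries. Its log2 fold change was -0.28 ± 0.24 (SE, edgeR adjusted p = 0.463), and -0.54 ± 0.09 without control replicate 3 (SE, edgeR adjusted p = 1.51e-05).

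Nor did any gene listed as acting downstream of the proteins, against the same 7.06%. Of 17 effectors (kinases such as FYN and PTK2, the WAVE complex, ADAM10 and gamma-secretase, RET), all were tested. Their median log2 fold change was -0.029. Without the threshold ADAM10, the protease that cleaves protocadherins at the cell surface, was higher (0.47, edgeR adjusted p = 0.0365), and the receptor kinase RET, a known partner, was lower (-0.80, edgeR adjusted p = 0.0371), which is 2 of 17 against the 16.6% of all genes. Neither passed when any one knockout library, or control replicate 1 or 2, was left out. With control replicate 3 left out, no effector passed the fold threshold, against 13.1% of all genes called higher and 9.75% called lower. Without that threshold 6 effectors were higher and 8 lower, against the same 65.6%.

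Among protocadherins outside the clusters, the calls over all 6 libraries were upward. Of 12 such genes 11 were tested, and 4 were called higher in knockout cells, against 3.34% of all genes. None was called lower, where 7.06% of all genes were called in both directions together. The median log2 fold change of those tested was 0.58. Without control replicate 3, 4 were called higher, against 13.1% of all genes, and 1, PCDH17, lower, against 9.75%. PCDH10 had 260, 237 and 43 counts in control and 7483, 7415 and 8119 in knockout libraries, a log2 fold change of 5.57 ± 0.65 (SE, edgeR adjusted p = 0.00659). PCDH9 had 2058, 1807 and 2474 counts in control and 4308, 3915 and 4526 in knockout libraries (1.16 ± 0.14, SE, edgeR adjusted p = 0.00729). In both genes every knockout library lay above every control. PCDH20 (3, 4 and 0 counts against 45, 40 and 59) and PCDH15 (4, 1 and 2 counts against 28, 20 and 18) were called higher at low counts. None of the 4 was called without knockout replicate 1 or without knockout replicate 3, and PCDH15 and PCDH20 were not called without knockout replicate 2 either.

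PCDH7, the most abundant of these genes per kilobase, had 6043, 5609 and 4128 counts in control and 7793, 8056 and 8509 in knockout libraries. Its log2 fold change was 0.78 ± 0.15 (SE, edgeR adjusted p = 0.0218), and it too did not pass without any one knockout library or without control replicate 1 or 2. A pair of other genes, singled out after their values were seen, set control replicate 3 apart. PCDH17 had 879, 825 and 8 counts in control and 131, 143 and 160 in knockout libraries, which is the order of libraries seen in the clusters. PCDH19 had 148, 134 and 4530 counts in control and 79, 60 and 91 in knockout libraries, so that it was highest in the control library where most clustered members were lowest. Both were short of the threshold over all 6 libraries (edgeR adjusted p = 0.333 for PCDH17 and 0.10 for PCDH19). Without control replicate 3 PCDH17 was called lower, at -2.43 ± 0.11 (SE, edgeR adjusted p = 6.43e-14), and the value of PCDH19 moved from -4.23 to -0.75 (edgeR adjusted p = 0.00104), short of the fold threshold.

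Of 15 neighbours on chromosome 5, 13 were tested and none was called with the fold threshold, against 7.06% of all genes. The median log2 fold change was 0.14. With control replicate 3 left out none passed the fold threshold either, against 13.1% of all genes called higher and 9.75% called lower. Without that threshold 3 were higher and 3 lower in this fit, against 65.6% of all genes, and the median was -0.0085. TAF7, a general transcription factor gene between the beta and gamma clusters, had 24531, 23454 and 18120 counts in control and 19485, 18392 and 18415 in knockout libraries (-0.07, edgeR adjusted p = 0.731). SLC25A2, a mitochondrial carrier gene in the same interval, had at most 11 counts in a library and was not tested. HARS1 (histidyl-tRNA synthetase) had a log2 fold change of -0.14 (edgeR adjusted p = 0.619) and DIAPH1 (a formin) 0.24 (edgeR adjusted p = 0.266). HDAC3, the catalytic subunit of the NCoR corepressor, had 0.0088 (edgeR adjusted p = 0.956), with a sign that changed among the alternatives. ARAP3, a GTPase-activating protein gene, was lower without the fold threshold (-0.54, edgeR adjusted p = 0.0319), though not when any one knockout library, or control replicate 1 or 2, was left out. Control replicate 3 held 75.6% of the mean of control replicates 1 and 2 for TAF7, 64.4% for HARS1, 76.8% for DIAPH1 and 101% for HDAC3, all above its 32.7% of the gamma cluster's level. TMCO6, a neighbour named after its values were seen, went the other way, with 1395, 1490 and 2623 counts in control and 2336, 2467 and 2418 in knockout libraries. It was thus higher in control replicate 3 and in all knockouts than in control replicates 1 and 2 (log2 fold change 0.55 ± 0.25, SE, edgeR adjusted p = 0.178, and 0.86 ± 0.08 with edgeR adjusted p = 6.19e-09 without control replicate 3). Of 4 clustered protocadherin pseudogenes none had enough counts to be tested, and PCDHGB8P, with 16, 9 and 3 counts in control and 1, 4 and 4 in knockout libraries, had the most.

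**Figure D5:**
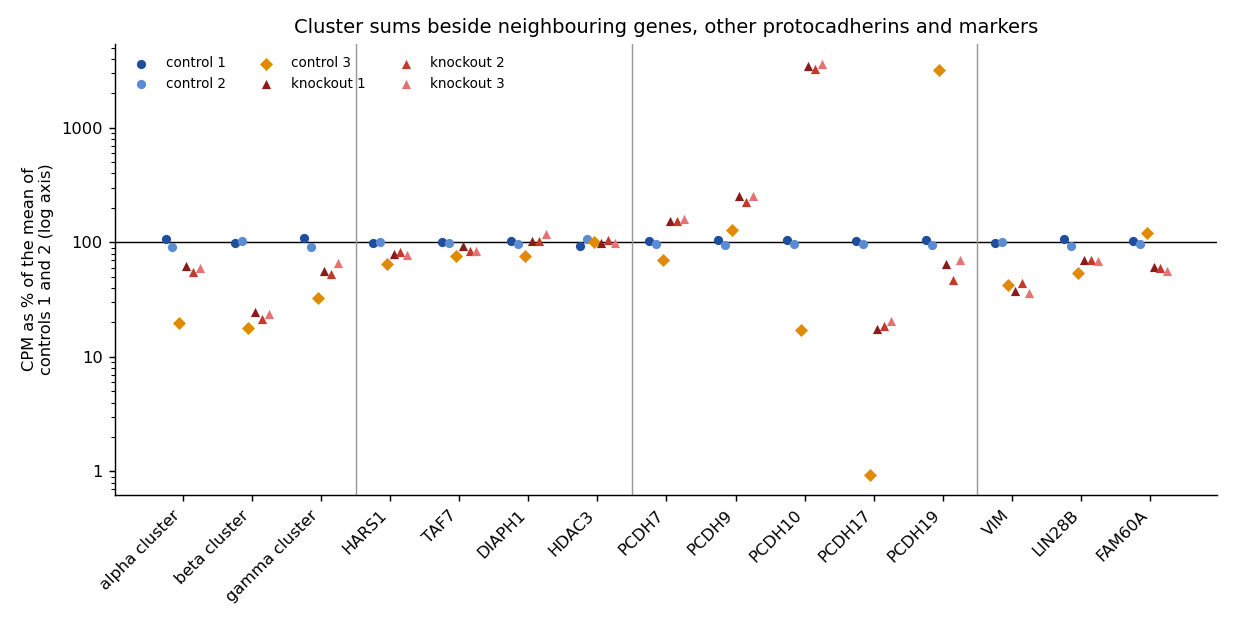
Level of each cluster, of 4 neighbouring genes, of 5 non-clustered protocadherins and of VIM, LIN28B and FAM60A in each library, as CPM in percent of the mean of control replicates 1 and 2 (log axis). The 3 clusters lie below 100% in control replicate 3 and in all knockouts, HDAC3 stays near 100%, PCDH10 is far above it in the knockouts, and FAM60A is at 121% in control replicate 3.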

How the data were processed

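RNA-seq counts of 3 control and 3 FAM60A-knockout libraries were used. The authors deposited raw counts in whole numbers for Ensembl genes. According to their methods, poly(A) RNA was made into stranded libraries and reads went through Trimmomatic and Salmon (hg38). The submitters' processing notes list STAR 2.7.10b, featureCounts 2.0.0 and hg38, and a label names hg19; the annotation release and the strand setting are not given in the sources used here. Of 62754 genes, 60878 were matched to a symbol, and 1 of 54 symbols of the pattern was left out as not protein coding. Exonic lengths came from GENCODE gene models of GRCh37, positions and promoters from RefSeq on GRCh38.

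Counts were tested with edgeR 4.0.16 in R 4.3.3 (TMM, filterByExpr with a minimum count of 10, two-sided quasi-likelihood F-test, Benjamini-Hochberg over all genes tested), at an adjusted p of at most 0.05 and a log2 fold change of 1 or more in size. The fit was checked on simulated counts drawn with a common dispersion and no deviating control library, so the check does not cover that case. The 4-fold comparison of control replicate 3 used a prior count of 2. Totals of 88361827 to 93346824 counts set the precision, and a floor of 3 counts was used. Alternatives were DESeq2 1.42.0, limma-voom (limma 3.58.1), no TMM, other filters, each library left out and a replicate block.

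Genes named in the text were the 3 most abundant members of each cluster per kilobase, members called, the C-type isoforms, CTCF, RAD21, SMCHD1, called or most abundant genes of the lists, 5 neighbours and FAM60A. Other names were picked once their values were known. Members and lists were chosen with earlier results of these data known. PECAM1, an endothelial marker, was not matched. Statistics were run in Python 3.11.15 with numpy 2.4.6, pandas 2.3.3 and scipy 1.17.1, and figures drawn with matplotlib 3.10.9.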

Additional observations from a re-analysis of the deposited data

How the results depend on the processing

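How many genes were called depended on which libraries were used and on the replicate block. Among all genes 1482 were called over all 6 libraries, and between 156 (without knockout replicate 1) and 4965 (without control replicate 3) with one library left out. Among the clustered protocadherins the count was 0 in the main test, 2 with DESeq2, 1 with limma-voom, and 0 to 24 with one library left out, the 24 without control replicate 3, of which 8 were members that passed the filter only then; the count stayed at 0 without TMM, under the other filters and with the other libraries left out. With the replicate number as a block, 334 of all genes and 0 members were called; the libraries share only a number (correlations of same-numbered deviations from the group means 0.010, 0.031 and -0.036), and not every library correlated best with its own number. Of the non-clustered protocadherins 4 were called, 2 with at least 10 counts in every library, 2 under the replicate block, and 0 to 5 with one library left out, the lowest without knockout replicate 1 or 3.

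Under at least one alternative the fitted value changed sign in 4 of 23 members and in 23 of 78 other listed genes tested. Those followed by name were the 4 members, HDAC3, PAX2 and RBFOX3. PCDHA10 turned to 0.075 with limma-voom, 0.13 without control replicate 1 and 0.084 under the replicate block, PCDHAC2 to 0.064 without control replicate 1 and 0.0022 under the replicate block, PCDHGC3 to 0.084 without control replicate 1, and PCDHB5 to 0.10 without control replicate 3 (log2 scale). With one library left out, the values ranged from -0.73 to 0.13 for PCDHA10, from -0.87 to 0.064 for PCDHAC2, from -0.58 to 0.084 for PCDHGC3, from -1.27 to 0.10 for PCDHB5 and from -0.066 to 0.051 for HDAC3. HDAC3 was -0.013 with DESeq2, -0.10 without TMM, -0.066 without control replicate 1, -0.020 without control replicate 3 and -0.011 without knockout replicate 2. PAX2 was 0.29 without control replicate 3 (-0.98 to 0.29 with one library left out). RBFOX3 was 0.016 with limma-voom, 0.12 under the replicate block and 0.84 without control replicate 3 (-0.73 to 0.84 with one library left out). The cause of these changes was not tested.

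With the exponential of Shannon entropy as the index, the effective number for control and knockout cells was 3.45 and 2.98 in alpha, 6.94 and 7.12 in beta, and 4.13 and 3.18 in gamma. From counts without length it was 2.44 in alpha and 2.01 in gamma for knockout cells, and with members of at least 10 counts 1.75 in alpha. Without each cluster's most abundant member, the summed level of knockout cells was 2.69 (alpha), 0.970 (beta) and 11.2 CPM (gamma), and 19.2 CPM for gamma in controls. The mean number of members with at least 3 counts was 8.0 and 6.67 in alpha, 13.3 and 10.0 in beta (control and knockout) and 18.7 in gamma knockout cells. With at least 100 counts it was 1.33 and 2.00 in alpha, 0.667 and 0.00 in beta and 4.67 and 3.0 in gamma. The filter left out 30 members. With no filter 52 were tested and none was called.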
